A study of Drosophila melanogaster with 6 samples.

Results

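Mitochondria carry their own ribosomes, which translate the few respiratory chain subunits encoded by mitochondrial DNA. Their RNA is made inside the organelle, but in animals every one of their proteins is encoded in the nucleus, made in the cytoplasm and imported. Some of these proteins descend from the ribosomal proteins of bacteria and keep the bacterial number, and others are found only in mitochondria. In Drosophila the genes are named mRpL for the large subunit, which forms peptide bonds, and mRpS for the small subunit, which reads the messenger RNA.

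The genes described here are the 73 features whose symbol starts with mRpL or mRpS and a number, out of 15135 features in the deposited table. By symbol they comprise 47 large-subunit and 26 small-subunit genes, and all 73 symbols matched a gene model of the dm6 annotation. The fly genes tko and bonsai also encode small-subunit proteins of this ribosome, are not named in this way, and are given apart. The libraries hold polyadenylated RNA from whole Drosophila melanogaster embryos of about stage 14, with 3 libraries of the wild-type genotype and 3 of mutants in spo, which encodes a cytochrome P450 of ecdysone synthesis. The submitters call the libraries of each genotype independent. The sources used here do not give the spo alleles, the wild-type strain, any other allele the mutants carry, or whether libraries came from separate embryo collections, so a p-value covers no more than the spread seen among the libraries. The stated purpose was to identify targets of ecdysone signaling, ecdysone being the steroid hormone of insects.

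Values are TPM (transcripts per 1000000), in which reads are divided by gene length and scaled so that every library totals 1000000. Whole reads rebuilt from the TPM gave library totals from 50394497 to 73970512, and a member had between 359 and 6656 reads in a library. Pearson correlations of log2(TPM + 1) across all tested features ran from 0.995 to 0.998 for libraries of the same genotype, and were at most 0.975 for libraries of different genotypes. All 10 tissue markers checked for a whole embryo (such as elav for neurons and Mef2 for muscle) were present, from 4.25 TPM for vas to 236 TPM for elav in wild type. The spo libraries also held transcripts known to be laid down by the mother. The summed level of a list of 13 such transcripts was 19.8 to 20.8 TPM in wild type and 171 to 215 TPM in the mutants. In the limma fit described below, 9 of the 13 were called higher and 0 lower. The 69.2% called higher stands beside 33.9% of all tested features, of which 27.9% were called lower. Among the 13, wisp rose from 1.11 ± 0.14 to 31.8 ± 3.64 TPM (SD, n = 3). The part of this difference between the pools in the results below was not tested. In whole embryos, fewer cells of a type and less RNA per cell cannot be told apart.

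As a group the mitochondrial ribosomal protein genes stood at nearly the same level in both genotypes. Their summed level was 4618, 4658 and 4634 TPM in wild-type replicates 1, 2 and 3 and 4704, 4670 and 4718 TPM in spo replicates 1, 2 and 3. The mutant libraries all lay above the wild-type libraries, by 1.31% of the mean, and with median-of-ratios scaling the order of the means was the opposite (4674 TPM in wild type against 4660 TPM in spo, n = 3). In wild type the sum made up 0.464% ± 0.002 of all TPM. Of the 73 genes, 70 (95.9%) had a ratio of mean TPM within 1.2-fold in either direction, against 60.9% of the 10019 features tested. The 3 outside that range were mRpS10, mRpS18C and mRpL20. No member differed by 0.5 or more on the log2(TPM + 1) scale, where 16.9% of all tested features did. The median size of the log2 difference was 0.10 for the members and 0.18 for all tested features. For the 4720 tested features in the members' range of wild-type TPM, these values were 8.07% and 0.14. The share within 1.2-fold is given for all tested features only.

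**Figure D1:**
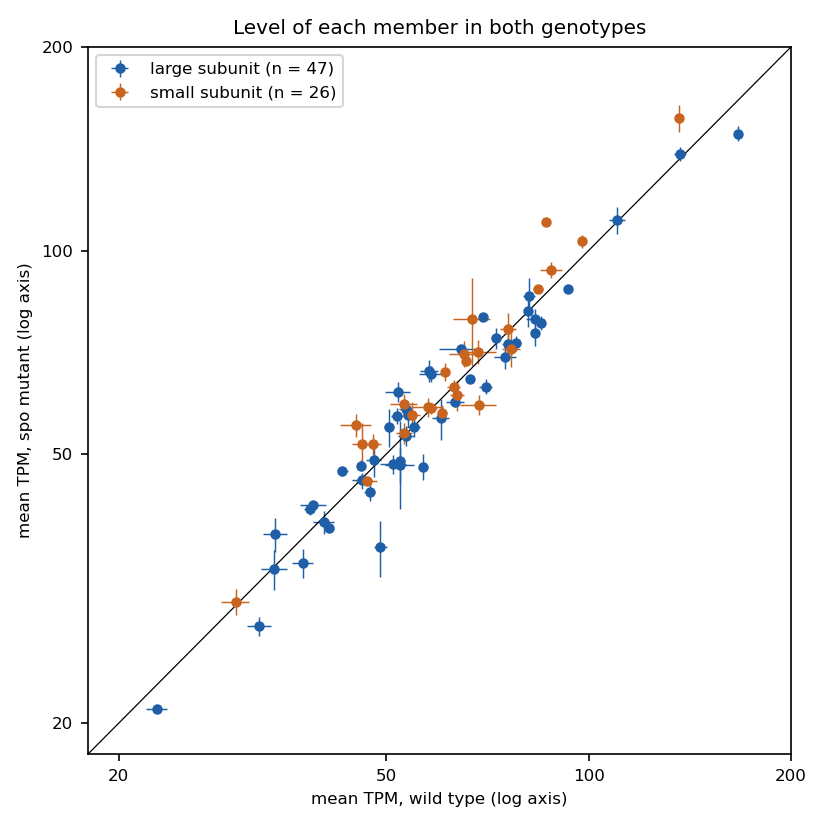
Mean TPM of each of the 73 genes in wild type (x axis, log scale) and in spo mutants (y axis, log scale), with bars for the SD over 3 libraries and a line of equal values; blue marks the 47 large-subunit and orange the 26 small-subunit genes. The genes lie close to the line from 22.8 TPM (mRpL21) to 167 TPM (mRpL53), with mRpL20 below it and mRpS10 above it.

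The level itself varied 7.32-fold between the highest and the lowest gene in wild type, although each protein is thought to occur once in a ribosome, apart from the L12 stalk. The median was 58.2 TPM, and 51 of the 73 genes lay between 40 and 80 TPM. Across the 73 genes, log2 mean TPM in wild type and in spo correlated at Pearson's r = 0.966 (Spearman's rho 0.955), a description over genes of the same 6 libraries and not a test. Replicates of a genotype were close, with a median coefficient of variation of 2.48% in wild type and 3.37% in spo, against 2.09% and 3.02% for the 4720 tested features in the same range of wild-type TPM.

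At the top stood mRpL53, a mitochondria-specific protein of the large subunit, at 165, 167 and 168 TPM in wild type and 147, 153 and 147 TPM in spo. The gene (FBgn0050481) lies at 2R, 13954195 to 13955664, and 100% of its exon bases also belong to the annotated CG33155 on the same strand. CG33155 itself had 119 ± 1.27 TPM in wild type and 106 ± 3.02 TPM in spo, and both rows had a log2 difference of -0.16, so the values of the pair cannot be told apart. The next were mRpL30, at 137, 139 and 134 TPM in wild type and 140.4, 135 and 141 TPM in spo, and mRpS7, given below. These 3 and mRpL12, the protein of the flexible stalk that recruits translation factors in bacteria, were the members above 100 TPM in wild type. The stalk gene mRpL12 had a log2 difference of 0.01 (adjusted p = 0.905). It was singled out for its role and level after its values were seen.

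At the bottom stood mRpL21, at 22.9, 23.5 and 21.9 TPM in wild type and 21.1, 21.1 and 20.8 TPM in spo. The small-subunit head protein gene mRpS14 followed at 30.3, 31.0 and 28.2 TPM in wild type and 28.8, 30.3 and 31.6 TPM in spo. The spo values of mRpL21 all lay below the wild-type ones (log2 difference -0.11, limma adjusted p = 0.0317, a call lost in 4 of 6 fits without 1 library, with adjusted p of 0.0703 to 0.111), whereas those of mRpS14 overlapped (0.02, adjusted p = 0.759). The exons of mRpS14 share 35.8% of their bases with other annotated genes, so its reads and theirs may not be told apart. The third of the lowest genes, mRpL48, is given below. mRpL21 had the lowest mean in both genotypes. At the top the order of the means changed, since mRpS7 at 157 ± 7.15 TPM stood above mRpL53 at 149 ± 3.92 TPM in spo (SD, n = 3), although the spo values of these genes overlapped.

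Gene by gene, the differences were small and went both ways. All 73 genes passed the filter of at least 1 TPM in 3 libraries and were tested with limma on log2(TPM + 1), fitted over all 10019 tested features with Benjamini-Hochberg adjustment. Of the 73, 20 were higher and 15 lower in spo (adjusted p below 0.05), together 47.9%, against a background of 61.7% of all tested features called in either direction, 33.9% higher and 27.9% lower. Of the 4720 features in the same range of wild-type TPM, 64.6% were called. With median-of-ratios scaling the split of the members was 13 higher and 20 lower, against backgrounds of 30.9% higher and 31% lower. Without wild-type replicate 2, 17 were higher and 9 lower. Tested against a log2 difference of 0.2 rather than 0, 2 members were called (2.74%), mRpS10 (adjusted p = 0.000504) and mRpL20 (0.0242). This test called 25% of all features and 19.0% of the 4720 in the same range of wild-type TPM. Replicate ranges of the genotypes did not overlap for 42 members (57.5%), 23 of them higher and 19 lower in spo, against 68.4% of all features.

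The authors' deposited table, made from read counts with edgeR per the submitters' processing notes, calls 20 of the 73 genes at a false discovery rate below 0.05 (27.4%), 9 higher and 11 lower, against 56.2% of the same 10019 features. Of these 20, 19 were called here with the same sign. The exception was mRpS5, and 16 genes were called here and not in the authors' deposited table. The largest log2 fold changes of members in the authors' deposited table were 0.33 for mRpS10 and -0.45 for mRpL20.

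**Figure D2:**
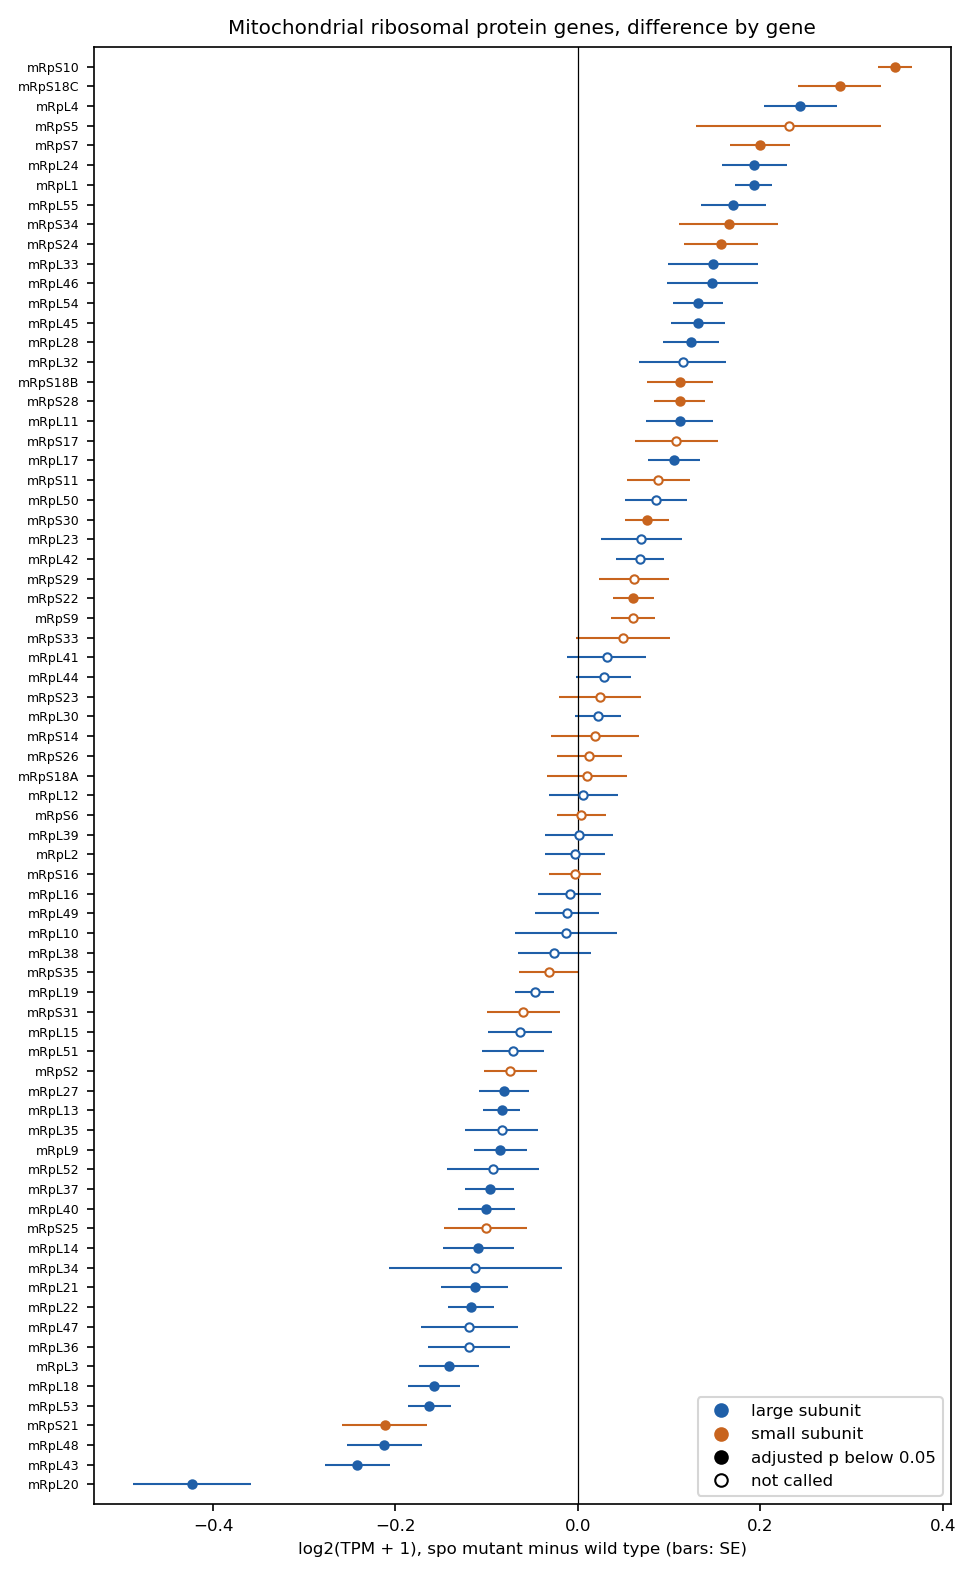
Difference of log2(TPM + 1), spo mutant minus wild type, for each of the 73 genes in order of size, with bars for the standard error from limma over 3 against 3 libraries. Filled points passed an adjusted p of 0.05 and open points did not; the genes run from -0.42 (mRpL20) to 0.35 (mRpS10), and orange small-subunit points lie mostly to the right of 0.

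**Figure D3:**
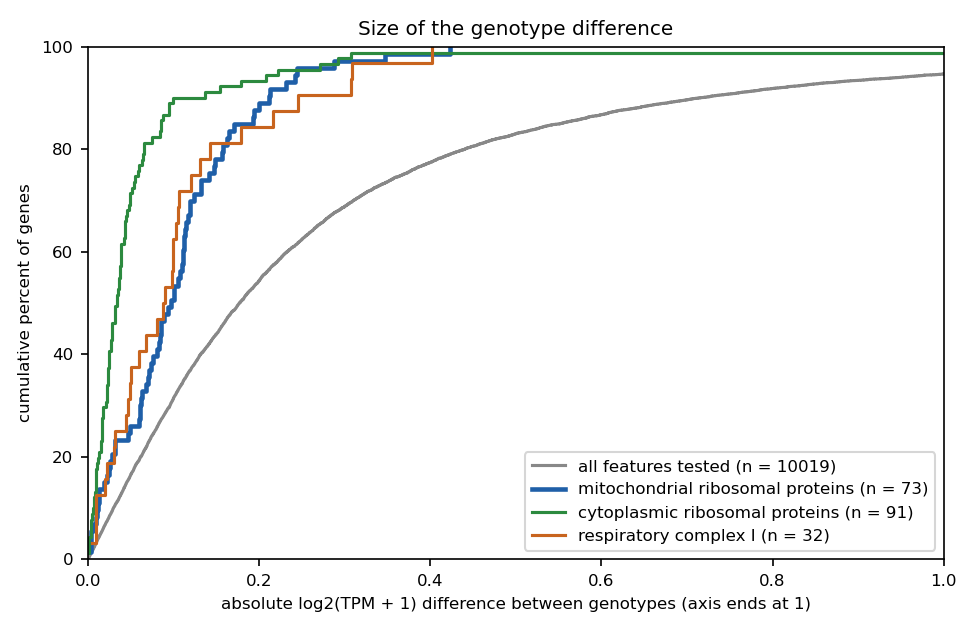
Cumulative percent of genes (y axis) against the absolute log2(TPM + 1) difference between genotypes (x axis, cut at 1) for the 73 mitochondrial ribosomal protein genes, 91 cytoplasmic ribosomal protein genes, 32 genes of respiratory complex I and all 10019 features tested. The median size was 0.10 for the mitochondrial ribosomal proteins, 0.03 for the cytoplasmic ones, 0.09 for complex I and 0.18 for all features. It was 0.14 for the 4720 features in the range of wild-type TPM of the 73 genes, which are not drawn apart.

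In the fit on TPM as deposited, most called small-subunit genes were higher, and those of the large subunit were divided. Of the 26 small-subunit genes 9 were higher and 1 lower (median log2 difference 0.06), and of the 47 large-subunit genes 11 were higher and 14 lower (median -0.01), beside a median of 0.02 over all tested features. Subunits are taken from the symbol. The 26 thus include mRpS18A, which was not called, and mRpS30, which was called higher. The human counterparts of both are found in the large subunit. The shares called higher, 34.6% of the small and 23.4% of the large subunit, stand beside 33.9% of all features, and the shares called lower, 3.85% and 29.8%, beside 27.9%. The small-subunit share higher and the large-subunit share lower are thus near the background. Counting sign alone, 20 of 26 small-subunit differences were above 0, against 20 of 47 for the large subunit. With median-of-ratios scaling the called genes numbered 5 higher and 3 lower in the small subunit and 8 and 17 in the large, with medians of 0.04 and -0.04. With voom on rebuilt reads they numbered 3 higher and 2 lower in the small subunit and 6 and 15 in the large, with medians of 0.04 and -0.04. In the 6 fits without 1 library the small-subunit median ran from 0.05 to 0.07 and the large-subunit median from -0.03 to -0.01.

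Per library the contrast looked as follows. The mean level per small-subunit gene was 66.1, 66.9 and 65.5 TPM in wild-type replicates 1, 2 and 3 and 69.8, 70.4 and 69.5 TPM in the spo replicates. For large-subunit genes it was 61.7, 62.1 and 62.3 TPM in wild type and 61.5, 60.4 and 61.9 TPM in spo. The small-subunit values of the genotypes did not overlap and differed by 5.58% of the mean, while those of the large subunit overlapped. With median-of-ratios scaling both were apart, at 66.7 ± 0.61 against 69.3 ± 0.40 TPM for the small subunit and 62.5 ± 0.35 against 60.8 ± 0.82 TPM for the large (wild type against spo, SD, n = 3), so the contrast in overlap depends on the scaling. In TPM as deposited, the ratio of the small to the large mean was 1.07, 1.08 and 1.05 in wild type and 1.14, 1.16 and 1.12 in spo. Without mRpS10 and mRpS7, the small-subunit genes with the most TPM gained, the small-subunit mean was 61.7 to 63.3 TPM in wild type and 64.4 to 64.8 TPM in spo, still apart. No test was made of a value summed over the genes. The genes themselves were not taken as replicates, since they share the same 6 libraries.

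**Figure D4:**
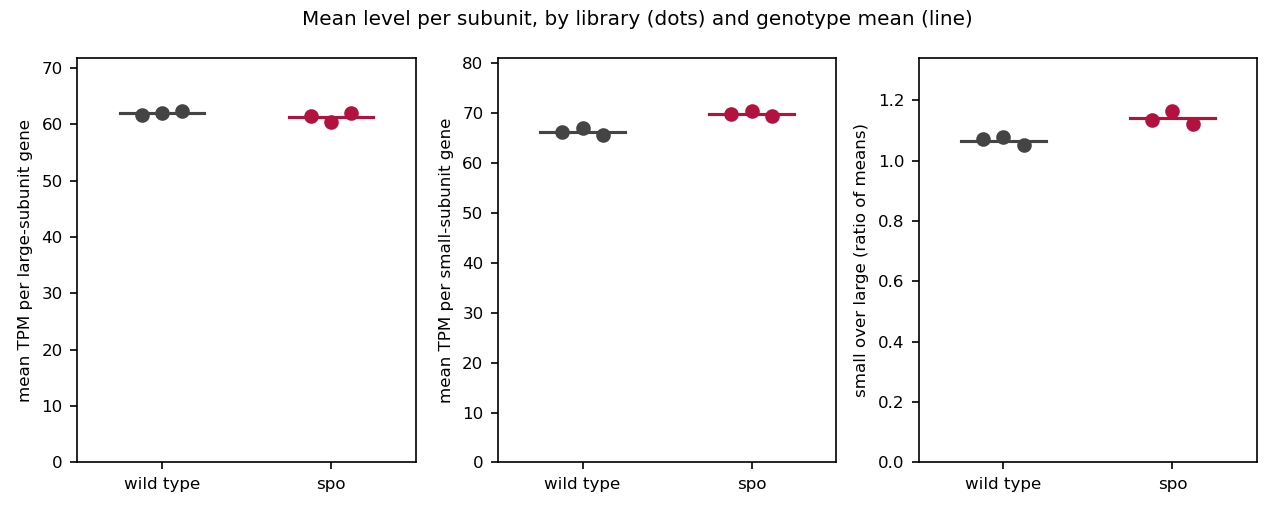
Mean TPM per large-subunit gene (left, n = 47), mean TPM per small-subunit gene (middle, n = 26) and the ratio of the small to the large mean (right, no unit) in each library, with dots for libraries and lines for genotype means. Subunits are taken from the symbol, so mRpS18A and mRpS30 count in the middle panel. The ratio is 1.05 to 1.08 in wild type and 1.12 to 1.16 in spo, and in these unscaled TPM the middle panel separates the genotypes while the left one does not; with median-of-ratios scaling both separate.

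Genes of both descents were called in both directions. By a rule made largely after the human structural nomenclature, 42 genes count as descended from a bacterial protein, of which 12 were higher and 10 lower, and 31 are specific to mitochondria, of which 8 were higher and 5 lower. The first class includes mRpS24 and mRpS28, both higher, whose human counterparts are named for bacterial proteins of other numbers, and the second includes mRpS18A and mRpS18B despite their number. The second class also includes mRpL47, which did not pass and whose human counterpart is named for a bacterial protein of another number. The median log2 difference was 0.00 for the first and 0.01 for the second class. The shares called were 52.4% of the first and 41.9% of the second class, beside 61.7% of all tested features. Called higher were 28.6% and 25.8%, beside 33.9%, and called lower 23.8% and 16.1%, beside 27.9%. Within the small subunit 5 of 14 genes of the first class were higher and 1 lower, and 4 of 12 mitochondria-specific genes were higher and 0 lower at an adjusted p below 0.05. Within the large subunit the counts were 7 higher and 9 lower of 28 and 4 higher and 5 lower of 19. In the order given, these groups had 42.9%, 33.3%, 57.1% and 47.4% of their genes called, beside the same 61.7%.

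The steepest rise was that of mRpS10, whose bacterial counterpart sits in the head of the small subunit. It stood at 86.6, 85.5 and 87.0 TPM in wild type and 110.1, 110.1 and 110.3 TPM in spo. The 6 libraries formed 2 tight groups with a wide gap, and the gene rose by 27.5% (log2 difference 0.35, SE 0.02, limma adjusted p = 9.46e-06). The gene (FBgn0038307) lies at 3R, 15229665 to 15230516, and shares no exon bases with another annotated gene. Its p was the smallest among the 73.

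Another head protein, mRpS7, which in bacteria starts the assembly of that part of the subunit, was at 138, 136 and 136 TPM in wild type and 154, 165 and 152 TPM in spo. All spo libraries lay above all wild-type libraries (log2 difference 0.20, SE 0.03, adjusted p = 0.00157). It is on 2L, 10386662 to 10387652, again with no shared exon bases.

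The small subunit has a set of paralogs that share the number of the bacterial protein S18, mRpS18A, mRpS18B and mRpS18C. In the human ribosome mRpS18C takes the place of the bacterial protein, mRpS18B sits elsewhere in the small subunit, and mRpS18A is found in the large subunit. The mRpS18C gene was at 47.8, 44.0 and 43.3 TPM in wild type and 52.9, 57.1 and 55.4 TPM in spo, a rise of 22.5% with no overlap (log2 difference 0.29, SE 0.05, adjusted p = 0.00127). The mRpS18B gene was at 47.8, 49.2 and 46.4 TPM in wild type and 49.7, 53.3 and 52.3 TPM in spo, apart by a narrow gap (log2 difference 0.11, SE 0.04, adjusted p = 0.0292). For mRpS18A the values were 73.8, 77.7 and 76.3 TPM in wild type and 80.8, 72.0 and 76.8 TPM in spo, which overlapped (log2 difference 0.01, 95% interval -0.09 to 0.11, adjusted p = 0.853). Differences between the paralogs' responses were not tested. The exons of mRpS18C share 11.0% of their bases with CG15536 on the opposite strand, which itself rose from 7.65 ± 0.45 to 15.1 ± 0.90 TPM. The sources used here do not say whether reads were counted by strand. The mRpS18B call was lost with median-of-ratios scaling, library quality weights and voom and in 4 of 6 fits without 1 library.

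The exception among small-subunit genes was mRpS21, the counterpart of a small bacterial protein, at 66.8, 73.5 and 65.8 TPM in wild type and 60.8, 59.6 and 57.0 TPM in spo. Every spo library was below every wild-type library (log2 difference -0.21, SE 0.05, adjusted p = 0.00609), and no other small-subunit gene was called lower in this fit. On the opposite strand CG8870 covers 48.0% of its exon bases, at a level of 0.325 ± 0.210 TPM in wild type.

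Outside the rule for named genes, a further 5 small-subunit genes were called higher, mRpS24, mRpS28, mRpS30, mRpS34 and mRpS22, with log2 differences from 0.06 (mRpS22) to 0.17 (mRpS34) and adjusted p from 0.0106 to 0.0473. The exons of mRpS24 share 55.3% of their bases with CG6182 (now TBC1d7) on the opposite strand, which rose from 25.5 ± 0.864 to 28.4 ± 1.07 TPM. The human counterpart of mRpS30 is found in the large subunit. The calls of mRpS22, mRpS30 and mRpS34 were lost with median-of-ratios scaling, and each also in several fits without 1 library, and those of mRpS24 and mRpS28 were lost with voom. The large-subunit genes called outside that rule were mRpL11, mRpL17, mRpL33 and mRpL46, higher by 0.11 to 0.15, and mRpL9, mRpL14, mRpL27 and mRpL40, lower, with log2 differences from -0.11 to -0.08. All 8 of these calls were lost in 2 or more fits without 1 library. The exons of mRpL17 share 23.6% of their bases with CG34263 on the opposite strand, at 5.82 ± 0.91 TPM in wild type.

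mRpS5, singled out after its values were seen, shows how much 1 library can weigh. It was at 68.7, 70.3 and 62.2 TPM in wild type and 77.5, 91.9 and 68.5 TPM in spo replicates 1, 2 and 3. Its lowest mutant library fell between the wild-type ones, and with a log2 difference of 0.23 (SE 0.10, 95% interval -0.01 to 0.47, adjusted p = 0.0848) it was the largest difference that did not pass. Without spo replicate 2 the difference was 0.12, and without spo replicate 3 it was 0.33 with an adjusted p of 0.0157. In the authors' deposited table its log2 fold change was 0.22 with a false discovery rate of 0.0243.

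Among large-subunit genes called higher, mRpL1 had the smallest p and mRpL4 the largest difference. mRpL1 belongs to the mobile stalk at which spent tRNA leaves the bacterial ribosome, and it stood at 70.3, 68.8 and 69.7 TPM in wild type and 79.5, 79.9 and 79.7 TPM in spo. The replicates of each genotype lay close together and the groups far apart, with a difference of 14.5% (log2 0.19, SE 0.02, adjusted p = 0.000173). mRpL4, whose bacterial counterpart lines the tunnel through which the new chain leaves, was at 53.4, 49.5 and 53.4 TPM in wild type and 59.5, 62.5 and 63.6 TPM in spo (log2 difference 0.24, SE 0.04, adjusted p = 0.00146). The gene of mRpL4 shares 7.21% of its exon bases with CG4278 on the opposite strand, which also rose, from 46.6 ± 1.22 to 59.9 ± 2.56 TPM. mRpL24, near the mouth of the same tunnel, was at 57.2, 56.5 and 60.0 TPM in wild type and 65.6, 69.1 and 64.4 TPM in spo (log2 difference 0.19, adjusted p = 0.00273), again without overlap of the groups.

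3 mitochondria-specific genes of the large subunit follow by p. mRpL55 was at 56.3, 57.8 and 60.7 TPM in wild type and 63.6, 66.6 and 66.8 TPM in spo (log2 difference 0.17, adjusted p = 0.00452). mRpL45, which in mammals ties the tunnel exit to the inner membrane, was at 51.3, 51.2 and 53.2 TPM in wild type and 55.9, 56.2 and 58.7 TPM in spo (log2 difference 0.13, adjusted p = 0.00692). mRpL54 was at 42.5, 42.7 and 43.9 TPM in wild type and 48.1, 46.4 and 47.3 TPM in spo (log2 difference 0.13, adjusted p = 0.00436), a call lost with voom on rebuilt reads (0.0532). In all 3 genes the highest wild-type library lay just below the lowest spo library. mRpL28, with a bacterial number, rose by a like amount, from 53.4 ± 1.21 to 58.3 ± 1.72 TPM (SD, n = 3, log2 difference 0.12, adjusted p = 0.0106), while Gmd, which overlaps 1.45% of its exon bases, fell from 70.7 ± 3.06 to 56.0 ± 2.22 TPM.

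The steepest fall was that of mRpL20, whose bacterial counterpart binds the large ribosomal RNA early in assembly. It stood at 50.3, 48.3 and 48.4 TPM in wild type and 37.2, 32.6 and 39.4 TPM in spo. The 3 wild-type libraries lay within a narrow band, the mutant ones were spread more widely and all lower, and the gene fell by 25.7% (log2 difference -0.42, SE 0.06, limma adjusted p = 0.00107). The gene (FBgn0036335) lies at 3L, 13017149 to 13017867, with no exon bases shared.

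The next falls were those of mRpL43 and mRpL48, both mitochondria-specific. mRpL43 was at 56.2, 57.8 and 56.3 TPM in wild type and 47.4, 46.1 and 50.2 TPM in spo (log2 difference -0.24, SE 0.04, adjusted p = 0.000852). mRpL48, part of the central protuberance in mammals, was at 32.9, 30.9 and 33.4 TPM in wild type and 26.8 to 28.6 TPM in spo (log2 difference -0.21, SE 0.04, adjusted p = 0.00331). The groups of both genes were apart. The exons of mRpL48 share 20.8% of their bases with frtz on the opposite strand, which fell by a like amount, from 24.7 ± 1.05 to 21.4 ± 0.42 TPM.

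Smaller falls were those of mRpL3, mRpL22 and mRpL18. mRpL3, whose bacterial counterpart reaches towards the peptidyl transferase centre, was at 84.2, 82.4 and 83.4 TPM in wild type and 77.7, 71.9 and 77.0 TPM in spo (log2 difference -0.14, adjusted p = 0.00775). mRpL22, another tunnel protein, fell from 84.9 ± 1.19 to 78.2 ± 1.85 TPM (log2 difference -0.12, adjusted p = 0.0055). mRpL18, of the central protuberance in bacteria, was at 69.9, 71.9 and 69.0 TPM in wild type and 63.3, 64.2 and 61.1 TPM in spo (log2 difference -0.16, adjusted p = 0.00238). For these 3 genes the ranges did not meet. The tunnel proteins mRpL4 and mRpL22 thus differed in direction, in this fit and with median-of-ratios scaling.

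mRpL53, the most abundant, fell by 10.7% (log2 difference -0.16, SE 0.02, adjusted p = 0.000827), with the limit on telling it from CG33155 given above. The fall of mRpL13, an early assembly protein in bacteria, from 93.1 ± 0.85 to 87.8 ± 0.92 TPM was the smallest among the 10 named (SD, n = 3, log2 difference -0.08, adjusted p = 0.00906). Its exons share 35.2% of their bases with CG10602 on the same strand, which fell from 60.3 ± 1.72 to 57.0 ± 0.45 TPM. mRpL37 fell from 78.1 ± 1.28 to 72.9 ± 1.89 TPM (log2 difference -0.10, adjusted p = 0.0168), a call lost without wild-type replicate 2 or 3.

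**Figure D5:**
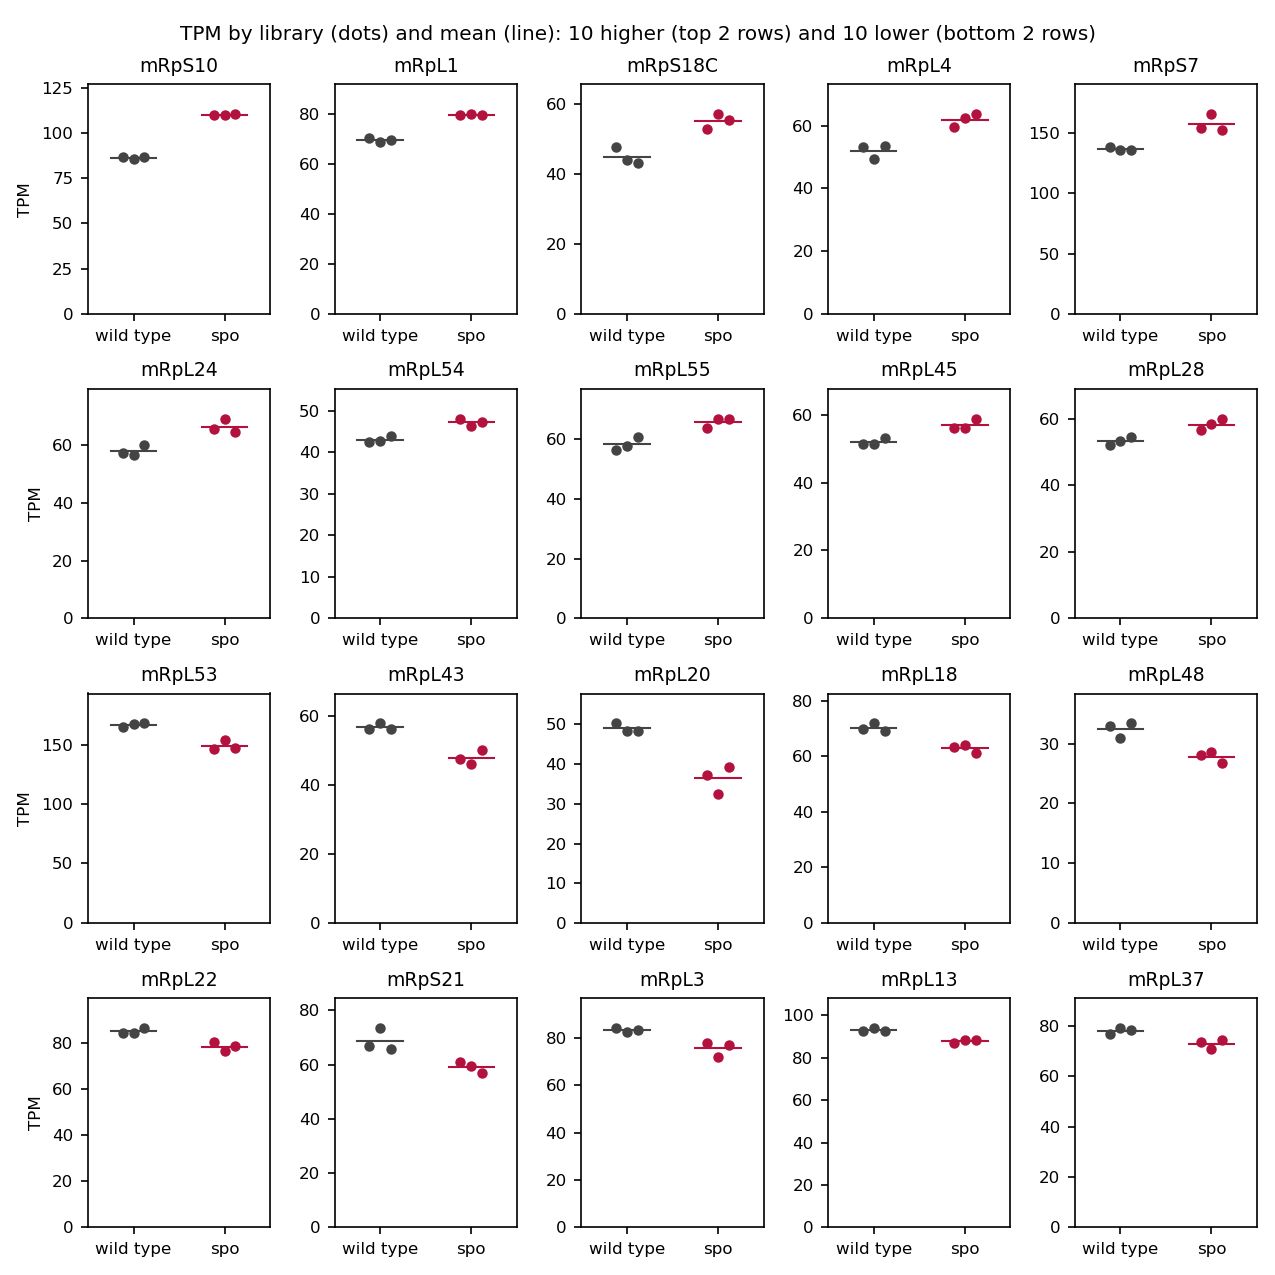
TPM in each library (dots, n = 3 per genotype) and genotype mean (line) for the 10 genes called higher (upper 2 rows) and the 10 called lower (lower 2 rows) with the smallest p; each panel has its own y axis from 0. In every panel the spo dots lie wholly above or wholly below the wild-type dots, and the largest log2 differences are those of mRpS10 and mRpL20.

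At the other extreme, mRpL39, mRpL2 and mRpS16 had the smallest differences. mRpL39, a mitochondria-specific protein, was at 81.6, 80.8 and 81.1 TPM in wild type and 76.6, 84.6 and 82.8 TPM in spo. mRpL2, whose bacterial counterpart lies beside the peptidyl transferase centre, was at 53.6, 55.6 and 55.8 TPM in wild type and 56.9, 54.4 and 53.3 TPM in spo. mRpS16, an early assembly protein of the small subunit in bacteria, was at 61.8, 64.6 and 62.6 TPM in wild type and 63.8, 61.2 and 63.7 TPM in spo. In all 3 genes the ranges of the genotypes overlapped. The 95% intervals of the log2 difference were -0.08 to 0.07 for mRpL2, -0.07 to 0.06 for mRpS16 and -0.09 to 0.09 for mRpL39. Over the 38 genes that did not pass, 36 had a 95% interval that lay within 0.25 of 0 on the log2 scale. The exceptions were mRpS5 and mRpL34, where the lower bound was -0.34. mRpL34 had 53.3, 52.3 and 51.6 TPM in wild type and 55.9, 41.4 and 49.0 TPM in the mutants, and it too was singled out after its values were seen. Its difference was -0.11 (adjusted p = 0.338), -0.0025 without spo replicate 2, and -0.21 with a call (adjusted p = 0.0373) without spo replicate 1.

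The genes are scattered over the genome, with 12 on 2L, 12 on 2R, 17 on 3L, 21 on 3R and 11 on X. Most are short, with a median merged exon length of 783 bases, and 63 of 73 have at most 3 merged exons. Exons of 43 genes share bases with another annotated gene, 40 of them with genes of the opposite strand alone, and among the 43 the median share was 6.97% of the member's exon bases. Called genes whose share is not given above include mRpL43 (8.43%), mRpL11 (7.22%), mRpL1 (6.97%), mRpS28 (6.66%), mRpL24 (5.71%) and mRpL18 (5.54%). Of the 30 genes that share no exon base, 9 were higher and 8 lower. Their 56.7% called stands beside 47.9% of all 73 and 61.7% of all tested features. The median size of their log2 difference was 0.11, close to the 0.10 of all 73.

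Among mitochondrial ribosomal protein genes known by other names, the 2 listed here, tko and bonsai, did not pass the test. No search was made for further genes of this ribosome under other names. tko, which encodes the counterpart of bacterial S12 and whose mutants are known for bang-sensitive seizures, had a mean of 24.1 ± 0.347 TPM in wild type and 24.2 ± 0.889 TPM in spo (SD, n = 3). bonsai, the counterpart of S15, was at 82.0, 81.4 and 89.3 TPM in wild type and 84.1, 86.0 and 85.8 TPM in spo. The groups of both genes overlapped, with log2 differences of 0.00 (adjusted p = 0.956) and 0.02 (0.678).

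Genes that serve this ribosome were called in both directions. Of 13 mitochondrial translation factor genes 5 were higher and 3 lower, with a median size of the log2 difference of 0.22. The 61.5% called is near the 61.7% of all tested features. The feature now named mRRF1, a ribosome recycling factor, stood at 8.58, 9.48 and 9.19 TPM in wild type and 16.0, 17.6 and 15.6 TPM in spo (log2 difference 0.79, adjusted p = 4.2e-05). gatA, a subunit of the enzyme that completes mitochondrial glutaminyl-tRNA, rose from 2.29 ± 0.12 to 4.80 ± 0.06 TPM (0.82, adjusted p = 3.8e-05). waw, the fly counterpart of the bacterial elongation factor LepA, fell from 37.1 ± 0.77 to 30.4 ± 0.66 TPM. The feature now named mIF3, an initiation factor, rose from 12.2 ± 0.39 to 15.3 ± 0.83 TPM. No mitochondrial ribosomal protein gene had a difference as large as those of mRRF1 and gatA.

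Of 16 mitochondrial aminoacyl-tRNA synthetase genes 5 were higher and 3 lower, 50% of them called, beside 61.7% of all tested features. The enzyme for methionine rose from 7.19 ± 0.45 to 11.8 ± 0.18 TPM. The enzyme for glutamate rose to 7.46 ± 0.16 TPM (log2 difference 0.50). The enzyme for phenylalanine fell from 119.6 ± 1.78 to 102 ± 3.17 TPM, and that for leucine fell to 23.2 ± 0.89 TPM (log2 difference -0.24). In the list for mitochondrial transcription and RNA processing 6 of 14 were higher and 3 lower, 64.3% called. mtTFB1, a methyltransferase of the small-subunit ribosomal RNA, was at 58.9, 58.9 and 59.8 TPM in wild type and 75.6, 80.3 and 79.8 TPM in spo (log2 difference 0.40, adjusted p = 2.95e-05). mtRNApol, the mitochondrial RNA polymerase, rose from 23.2 ± 0.27 to 29.0 ± 0.41 TPM, its cofactor mtTFB2 from 12.4 ± 0.96 to 17.9 ± 1.92 TPM and TFAM, which packages mitochondrial DNA, from 97.6 ± 1.49 to 106.7 ± 1.90 TPM.

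Among the nuclear genes for the respiratory chain, 14 of 32 for complex I were higher and 1 lower, with a median log2 difference of 0.08. The share called was 46.9%, below the 61.7% of all features, the share higher was 43.8% against 33.9%, and the share lower was 3.12% against 27.9%. Counts for complex I and the other lists are from the fit on TPM as deposited. How the list counts depend on the scaling was not tested. Its subunit gene ND42 rose from 92.1 ± 2.39 to 114 ± 2.18 TPM. Another, CG18624 (now ND-MNLL), had 98.8 ± 0.82 TPM in wild type and rose to 122 ± 2.49 TPM. Higher and lower members numbered 1 and 2 of 4 for complex II, 2 and 1 of 8 for complex III, 3 and 1 of 14 for complex IV and 6 and 1 of 14 for ATP synthase. The shares called in complexes II, III and IV and ATP synthase were 75%, 37.5%, 28.6% and 50%. ATPsyn-Cf6 rose from 155 ± 7.09 to 209 ± 3.98 TPM. They numbered 3 and 2 of 11 in the import list and 4 and 4 of 11 for mitochondrial chaperones and proteases, 45.5% and 72.7% called. The name pattern of the import list also took in Tom, a gene of the Notch pathway and not of import, which is 1 of its 2 lower members. In the list of regulators of mitochondrial biogenesis 4 of 9 were higher and 2 lower, 66.7% called. The higher ones include crc (the fly ATF4), from 330 ± 5.08 to 377 ± 5.35 TPM, and ewg, the fly counterpart of NRF1, was lower at 118 ± 1.75 and 110.4 ± 2.91 TPM.

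The cytoplasmic ribosomal protein genes differed by less. Of 91 tested, 10 were higher and 5 lower, 16.5% called beside 61.7% of all tested features. The shares higher and lower were 11.0% and 5.49%, beside 33.9% and 27.9%. The median size of the log2 difference was 0.03 against 0.10 for the mitochondrial ones, at a median of 2753 against 58.2 TPM. Fewer reads per gene go with the lower level, and the part of depth in the difference between the families was not tested. No test was made between the families.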

How the data were processed

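Polyadenylated RNA of whole embryos was sequenced in 3 wild-type and 3 spo libraries. The authors deposited TPM per feature. A second deposited table holds their comparison as a log2 fold change, an average log2 CPM, a test score (likelihood ratio) and a p-value with its false discovery rate. Tools named in the submitters' processing notes are edgeR, featureCounts, Subread, STAR 2.5.3a and FastQC 0.11.2, with the dm6 build. The sources used here give neither annotation release nor strand setting. TPM values are relative: if some transcripts rise a great deal, the rest appear lower.

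Genes were placed with the Ensembl annotation in dm6 coordinates. Reads were rebuilt by finding the step of each library at which TPM times exon length is whole, within 0.001. This held for 94.6% of the 14969 features with a gene model and 72 of the 73 members at the annotated length. For mRpS16 and other features, 971 in all, the nearest length that gave whole reads was used, and for 3 features none did. Totals rebuilt in this way are estimates.

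limma 3.58.1 in R 4.3.3 was fitted with an intensity trend and no covariate besides genotype to log2(TPM + 1) of features reaching 1 TPM in 3 or more libraries, and p-values were adjusted by Benjamini-Hochberg over all 10019. Differences are spo minus wild type on that scale. The fitting step was also run on simulated reads with the same spread setting for all genes and few genes changed. These settings differ from the data, so the run does not vouch for the calls here. Libraries with the same number deviated from their group means with correlations of -0.03, 0.05 and 0.13, so replicate numbers were not taken as pairs.

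Named members are the 10 with the smallest p in each direction, the 3 highest, 3 lowest and 3 least different, and paralogs sharing a number. Genes named outside this rule (mRpL12, mRpS5, mRpL34 and the remaining called members) were added after their values were seen. From other lists up to 4 genes with the smallest p are named. List names were matched to deposited or current symbols. Members and lists were chosen with earlier results of these data known. Alternatives were another pseudocount, other filters, other scalings, a replicate block, library quality weights, a test against 0.2, each library left out, and voom on rebuilt reads, the last chosen after seeing the data.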

Additional observations from a re-analysis of the deposited data

How the results depend on the processing

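Of the 35 members called, 18 kept call and direction in all 14 alternatives other than the test against a log2 difference of 0.2, and none of the 35 turned direction there. Tested against 0.2, 2508 of all features and 2 members were called, 1 higher and 1 lower. Members called higher numbered 13 with median-of-ratios scaling and 9 with voom on rebuilt reads, against 20. Median-of-ratios scaling divided the wild-type libraries by 0.991 to 0.994 and the spo libraries by 1.007 to 1.009, which lowers each difference. The voom fit was scaled by the same method, computed on the rebuilt reads. The part of this shift in the counts was not tested. Leaving out 1 library gave 24 to 37 members called, 14 to 24 higher and 9 to 14 lower, and 5288 to 6305 of all features, against 6185; the 9 came without wild-type replicate 2. With the replicate block 33 members were called, 29 of them shared with the 35, and the same-numbered libraries were not taken as pairs. Directions of some uncalled members turned: with median-of-ratios scaling mRpL30 (-0.00043), mRpS14 (-0.0038), mRpL39 (-0.021) and mRpS18A (-0.013), with upper-quartile scaling mRpL39 (-0.0037), with voom mRpL39 (-0.017) and mRpS18A (-0.017), and with library quality weights mRpS14 (-0.013), mRpL39 (-0.036), mRpL2 (0.015) and mRpS16 (0.0089). Without 1 library mRpS14 ran from -0.020 to 0.052, mRpL39 from -0.027 to 0.043, mRpL2 from -0.029 to 0.017, mRpS16 from -0.016 to 0.016 and mRpS18A from -0.029 to 0.053. At 359 to 6656 reads per member and library, 3 against 3 libraries gave standard errors of 0.02 to 0.10 on the log2 scale.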
